A study of Mus musculus with 10 samples.

Results

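The genes described here encode LSD1 (Kdm1a), its paralogue LSD2 (Kdm1b) and partners of LSD1. The partners are the CoREST scaffolds Rcor1 and Rcor3, the deacetylases Hdac1 and Hdac2, the accessory subunits Phf21a and Hmg20b, and the DNA-binding repressor Gfi1. They were found by matching the 9 mouse symbols to the Entrez identifiers of a deposited table of mRNA per cell, and all 9 were among its 9690 genes. LSD1 is a flavin-dependent enzyme that takes methyl groups off mono- and dimethylated lysine 4 of histone H3, a mark of active promoters and enhancers. The CoREST scaffold holds LSD1 on nucleosomes and couples it to HDAC1 or HDAC2, so that demethylation and deacetylation silence the same site. GFI1, through its SNAG domain, resembles the histone tail and brings LSD1 to DNA, and in blood cells it is known as a repressor that also represses its own gene.

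Spleens of female C57BL/6J mice, untreated and unstimulated, gave the B cells, which were sorted at 50000 cells per sample before RNA was taken. Marginal zone B cells (MZB), innate-like cells at the rim of the splenic white pulp, were gated as CD21hi, CD1d+ and CD23-, and follicular B cells (FoB), the recirculating majority, as CD21mid, CD23+ and CD1d-. Both gates were B220+ and negative for Thy1.1, F4/80, CD11b, CD93 and GL7. The groups were LSD1 knockout MZB (2 libraries), wild-type MZB (3), knockout FoB (3) and wild-type FoB (2). Nothing in the labels names the deleted exons, a Cre driver or the age of the mice, and none says that replicates were different animals. The p-values below therefore speak only for these libraries, whose spread may be technical.

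The libraries held 4161051 to 6711847 reads (worked back from the table as whole numbers), and the median gene held 184 to 319. Summed mRNA per cell was 113330.5 ± 10946.1 in knockout MZB (SD, n = 2) and 88955.9 ± 12814.6 in wild-type MZB (SD, n = 3). It was 49138.1 ± 6131.0 in the 3 knockout FoB libraries and 50837.4 ± 7920.1 in the 2 wild-type FoB libraries (SD). Values are therefore given per cell, as deposited, and rescaled, which divides each library by a common factor so that a gene is set against the other genes of its library. Per cell, the median gene had a log2 change of 0.32 between knockout and wild-type MZB and of −0.050 between knockout and wild-type FoB, and after rescaling 0.018 and −0.0060. The marker genes set the sorts apart: the 7 marginal zone B cell markers together stood at 688 to 742 mRNA per cell in knockout MZB and 559 to 711 in wild-type MZB, against 69.3 to 93.4 in knockout FoB and 73.2 to 92.9 in wild-type FoB. After rescaling the same sum was lower in knockout MZB, at 422 to 446, than in wild-type MZB, at 477 to 524, and 2 of the 7 fell, Cr2 (CD21, a gate marker; log2 −0.39, limma adjusted p = 0.0306) and S1pr3 (−0.42, limma adjusted p = 0.0429). All 6 pan-B cell markers were measured, and 1 of them, Ms4a1 (CD20), fell in knockout MZB after rescaling (−0.53, limma adjusted p = 0.0234). The counts of both marker lists stand beside 1.9% of all genes called lower in knockout MZB after rescaling.

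Promoter windows of 300 bases, mostly before the transcription start and ending 50 bases after it, were matched for 8 of the 9 genes in RefSeq (GRCm38.p6, the assembly of mm10). The 3 windows shown are those of the deleted gene and of the DNA-binding partner that changed most. Each is written 5′ to 3′ along its gene, and capitals mark AATC, the core of the motif that GFI1 binds, or its reverse complement GATT. The Kdm1a window is chr4:136602674-136602973, and the Gfi1 windows, both on the minus strand as is that of Kdm1a, are chr5:107725756-107726055 (outer start) and chr5:107724294-107724593 (inner start).
Kdm1a: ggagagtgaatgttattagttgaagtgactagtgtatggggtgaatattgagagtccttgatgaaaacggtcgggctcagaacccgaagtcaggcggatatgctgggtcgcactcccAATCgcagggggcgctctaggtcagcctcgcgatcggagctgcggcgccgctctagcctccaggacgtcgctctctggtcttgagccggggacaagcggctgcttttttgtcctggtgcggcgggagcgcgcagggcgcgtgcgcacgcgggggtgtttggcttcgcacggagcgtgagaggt
Gfi1 outer: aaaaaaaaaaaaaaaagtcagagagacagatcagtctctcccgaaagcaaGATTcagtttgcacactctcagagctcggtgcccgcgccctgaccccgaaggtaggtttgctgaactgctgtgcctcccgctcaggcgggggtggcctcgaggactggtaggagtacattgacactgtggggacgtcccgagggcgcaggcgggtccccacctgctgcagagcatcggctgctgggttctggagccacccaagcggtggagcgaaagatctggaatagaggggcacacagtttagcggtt
Gfi1 inner: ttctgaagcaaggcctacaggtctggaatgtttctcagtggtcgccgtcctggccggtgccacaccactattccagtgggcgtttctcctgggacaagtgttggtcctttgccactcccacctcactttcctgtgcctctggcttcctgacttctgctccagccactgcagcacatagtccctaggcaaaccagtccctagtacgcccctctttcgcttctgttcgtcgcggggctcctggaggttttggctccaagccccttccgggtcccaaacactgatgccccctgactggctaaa
Kdm1a held 1 match, starting 133 bases before the start site, the outer Gfi1 window held 1, starting 200 bases before it, and the inner Gfi1 window held 0. This core is common: it occurred on either strand in 73.1% of 32851 mouse promoter windows of this length, and in 8 of the 12 windows of these genes. The windows of Hmg20b overlap and share their matches, and by gene the core occurred in 5 of the 8 matched. The longer letters AAATCA or TGATTT, which contain the core, occurred in 14.0% of all windows, in 1 window of Kdm1b and in 0 of the windows printed here. A match describes the letters of the window and says nothing of binding.

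Kdm1a (Entrez 99982, chr4:136550533-136602787) was lower in knockout than in wild-type cells of both types, and transcripts remained in every knockout library. Per cell, the knockout MZB libraries held 5.37 and 5.94, against 6.37, 8.36 and 7.90 in wild-type MZB. The knockout FoB libraries held 2.04, 2.36 and 1.93 per cell, against 5.58 and 4.34 in wild-type FoB. After rescaling, which no longer gives an amount per cell, the knockout MZB libraries stood at 3.48 and 3.37, against 5.64, 5.69 and 5.83 in wild-type MZB. On that scale the knockout FoB libraries stood at 3.01, 3.09 and 3.09, against 7.00 and 6.84 in wild-type FoB. The knockout and wild-type libraries did not overlap in either cell type on either scale. The rescaled log2 change was −0.69 ± 0.064 in MZB (SE; limma adjusted p = 0.000463) and −1.10 ± 0.064 in FoB (limma adjusted p = 2.5e-05), which leaves 60.0% and 44.3% of the wild-type mean. Per cell, the log2 change was −1.12 ± 0.19 in FoB (limma adjusted p = 4.31e-05), and in MZB it was −0.39 ± 0.19 and did not pass (limma adjusted p = 0.118). The reads behind these values were 278 and 335 in knockout MZB and 554, 542 and 480 in wild-type MZB.

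The residual level was smaller in FoB than in MZB, and the difference between the knockout effects did not pass on either scale. It was 0.41 ± 0.090 after rescaling (log2, MZB minus FoB, SE; limma adjusted p = 0.0727) and 0.73 ± 0.27 per cell (limma adjusted p = 0.102). After rescaling it passed with library weights (0.42, limma adjusted p = 0.0388), with limma voom on the recovered reads (0.43, adjusted p = 0.0397) and without knockout FoB library 2 (0.42, limma adjusted p = 0.0475). Per cell, leaving out the second wild-type MZB library brought it past the threshold (0.81, limma adjusted p = 0.0495). Where along the transcript the remaining reads fell cannot be read from a table of genes. In bulk RNA, fewer cells with a transcript and less transcript per cell cannot be told apart. Kdm1a also overlaps Luzp1 in the annotation, and whether reads were counted by strand is not given.

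**Figure D1:**
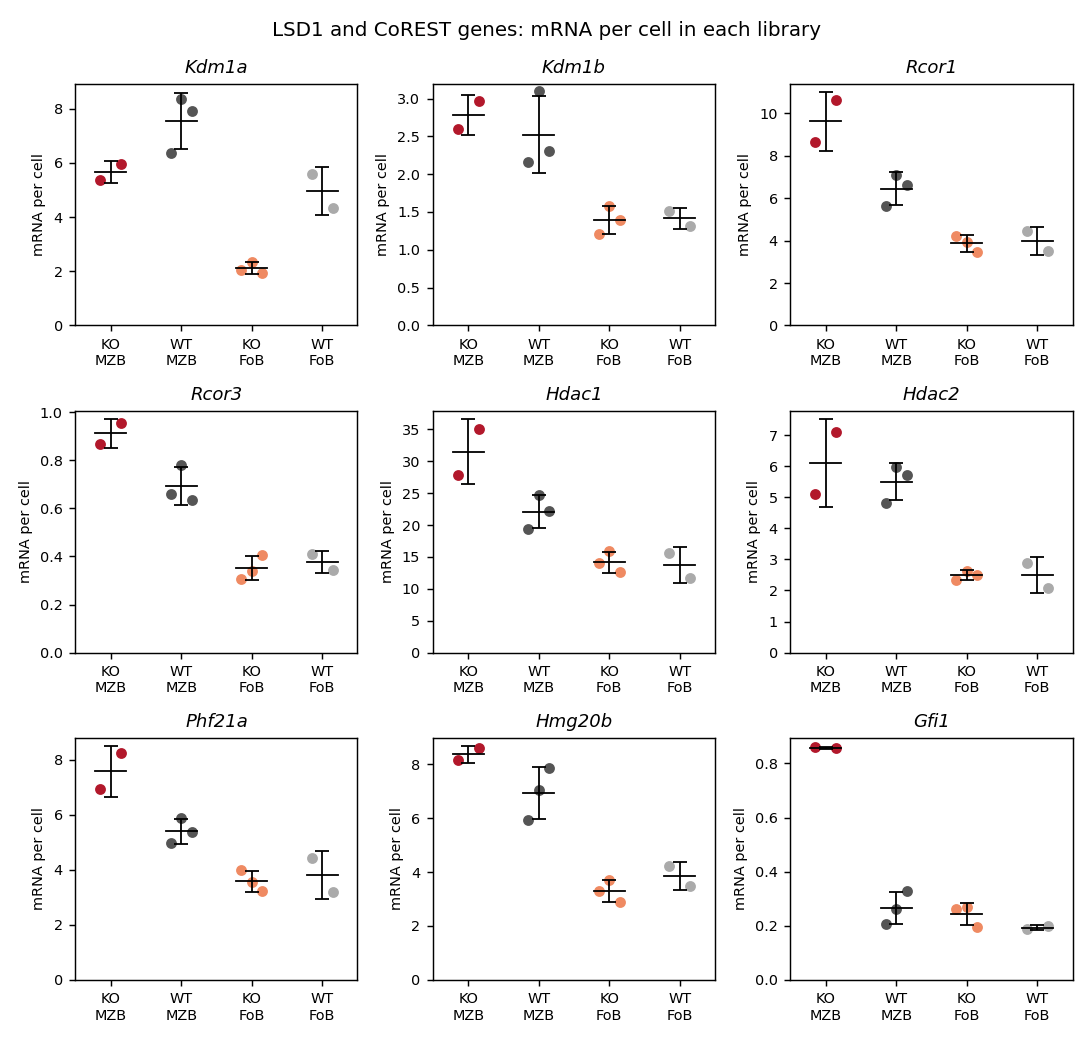
mRNA per cell of the 9 genes (y axes, linear, from 0) in each library, by group (x axes; KO, knockout; WT, wild type); points are libraries, horizontal lines group means and error bars SD (n = 2, 3, 3 and 2). Kdm1a is the gene that is lower in knockout than in wild-type cells of both types, and Gfi1 stands at 0.86 in both knockout MZB libraries and at or below 0.33 in the other libraries.

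By mean deposited level, Kdm1a came next below Hdac1 among these genes in wild-type cells and below Hdac2 in knockout cells. The deposited scale follows transcript length: the value of 1 read tracked the inverse of exon length (Spearman 0.818 across 9255 genes, which are not independent). Its product with length, which would be constant on an exact scale, lay within 2-fold of its median for 90.1% of them, and for these 9 genes between 0.78 (Gfi1) and 1.66 (Rcor1) of it, with 1.34 for Kdm1a, 0.84 for Hdac2 and 0.97 for Hmg20b. Orders between genes closer than about 2-fold, Kdm1a against Hmg20b, Rcor1, Hdac2 or Phf21a among them, are therefore those of the deposited values and not firm. In wild-type MZB, mean mRNA per cell was 22.1 for Hdac1, 7.54 for Kdm1a, 6.95 for Hmg20b, 6.45 for Rcor1, 5.50 for Hdac2, 5.40 for Phf21a, 2.52 for Kdm1b, 0.692 for Rcor3 and 0.265 for Gfi1. In that list the 5 genes from Kdm1a to Phf21a overlapped with their neighbours across libraries, while Hdac1 above them and Kdm1b, Rcor3 and Gfi1 below them stood apart. In knockout MZB the means were 31.5 for Hdac1, 9.61 for Rcor1, 8.38 for Hmg20b, 7.59 for Phf21a, 6.10 for Hdac2 and 5.66 for Kdm1a, and the last pair overlapped. Against all genes, Kdm1a stood at or above 53.5% of them in knockout MZB and 72.5% in wild-type MZB, and at or above 49.1% in knockout FoB and 77.0% in wild-type FoB.

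Kdm1b (Entrez 218214, chr13:47043373-47085279), whose product LSD2 removes the same methyl marks without CoREST, did not pass in either knockout. It held 2.59 and 2.97 mRNA per cell in knockout MZB, against 2.17, 3.10 and 2.31 in wild-type MZB, and these libraries overlapped. In FoB it held 1.22, 1.58 and 1.39 in knockout cells, against 1.51 and 1.32 in wild-type cells, again with overlap. The log2 change in MZB was 0.14 ± 0.19 per cell (SE; limma adjusted p = 0.551) and −0.15 ± 0.11 after rescaling (limma adjusted p = 0.428), so that its direction depends on the scale. In FoB it was −0.020 ± 0.19 per cell and 0.024 ± 0.11 after rescaling. Kdm1b overlaps Dek, a highly expressed chromatin gene that is also in the table, and reads of that overlap cannot be assigned with certainty.

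Rcor1 (Entrez 217864, chr12:111039367-111115902), which encodes the CoREST scaffold itself, was called higher per cell in knockout MZB and not after rescaling. It held 8.63 and 10.6 mRNA per cell in knockout MZB, against 5.62, 7.10 and 6.64 in wild-type MZB, with no overlap. The log2 change was 0.55 ± 0.19 per cell (SE; limma adjusted p = 0.0391) and 0.23 ± 0.081 after rescaling (limma adjusted p = 0.123). The per-cell call was lost when any of 5 libraries was left out: knockout MZB 1 (0.70) or 2 (0.41), wild-type MZB 1 (0.46) or 3 (0.58), or knockout FoB 1 (0.55). It was lost as well with a pseudocount of 0.1, library weights, only the compared groups or the replicate block (0.53, limma adjusted p = 0.165). In FoB, Rcor1 held 4.23, 3.95 and 3.45 mRNA per cell in knockout cells, against 4.43 and 3.49 in wild-type cells, and the log2 change was −0.025 ± 0.19 (limma adjusted p = 1).

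Rcor3 (Entrez 214742, chr1:192098546-192138074), a related scaffold, was among the low transcripts of these cells. It stood at or above 1.44% of genes in knockout MZB and 2.24% in wild-type MZB. Its levels were 0.870 and 0.955 mRNA per cell in knockout MZB, against 0.660, 0.781 and 0.635 in wild-type MZB, without overlap per cell and with overlap after rescaling. The log2 change was 0.29 ± 0.18 per cell (SE; limma adjusted p = 0.21) and 0.045 ± 0.13 after rescaling. In FoB it held 0.308, 0.339 and 0.405 in knockout cells, against 0.410 and 0.344 in wild-type cells.

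Hdac1 (Entrez 433759, chr4:129516104-129542646) was the highest of these transcripts in all 4 groups, at or above 93.6% to 94.5% of all genes. It held 27.9 and 35.1 mRNA per cell in knockout MZB, against 19.5, 24.7 and 22.2 in wild-type MZB, without overlap. The log2 change of 0.50 ± 0.20 per cell did not pass (SE; limma adjusted p = 0.0703), nor did that of 0.18 ± 0.065 after rescaling (limma adjusted p = 0.137); without wild-type MZB library 2 the per-cell change passed (0.59, limma adjusted p = 0.0358). In FoB, Hdac1 held 14.0, 15.9 and 12.6 in knockout cells, against 15.7 and 11.7 in wild-type cells. The annotation holds a processed copy, Hdac1-ps, and how reads that match both were counted is not given.

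Hdac2 (Entrez 15182, chr10:36974297-37001889), the other catalytic deacetylase, did not pass in either knockout. It held 5.10 and 7.09 mRNA per cell in knockout MZB, against 4.83, 5.97 and 5.72 in wild-type MZB. The libraries overlapped per cell, and after rescaling both knockout libraries (3.31 and 4.03) lay just below the lowest wild-type library (4.06). The log2 change was 0.13 ± 0.19 per cell and −0.18 ± 0.098 after rescaling (SE; limma adjusted p = 0.587 and 0.288). In FoB it held 2.34, 2.64 and 2.50 in knockout cells, against 2.89 and 2.08 in wild-type cells.

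Phf21a (Entrez 192285, chr2:92183751-92364667) encodes BHC80, which reads the unmethylated histone H3 tail that LSD1 leaves. It held 6.93 and 8.25 mRNA per cell in knockout MZB, against 4.97, 5.87 and 5.37 in wild-type MZB. The groups did not overlap on either scale, and the log2 change of 0.47 ± 0.19 per cell did not pass (SE; limma adjusted p = 0.0734), nor did 0.15 ± 0.096 after rescaling (limma adjusted p = 0.385). With the second wild-type MZB library left out the per-cell change passed (0.52, limma adjusted p = 0.0432). In FoB it held 3.99, 3.56 and 3.22 in knockout cells, against 4.42 and 3.18 in wild-type cells.

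Hmg20b (Entrez 15353, chr10:81346046-81350943) encodes BRAF35, an HMG-box subunit of the complex. It held 8.16 and 8.60 mRNA per cell in knockout MZB, against 5.92, 7.04 and 7.87 in wild-type MZB. These groups did not overlap per cell and did after rescaling, with log2 changes of 0.27 ± 0.19 and −0.048 ± 0.084 (SE; limma adjusted p = 0.253 and 0.778). In FoB it held 3.29, 3.69 and 2.89 in knockout cells, against 4.21 and 3.49 in wild-type cells, a log2 change of −0.21 ± 0.19 per cell and −0.17 ± 0.084 after rescaling (limma adjusted p = 1 and 0.378).

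Gfi1 (Entrez 14581, chr5:107716655-107725805), the repressor that guides LSD1, was the lowest of these transcripts in every group and the one that rose in knockout MZB on both scales. It held 0.860 and 0.856 mRNA per cell in knockout MZB, against 0.206, 0.263 and 0.327 in wild-type MZB. After rescaling it held 0.557 and 0.486 in knockout MZB, against 0.183, 0.179 and 0.241 in wild-type MZB. Both knockout MZB libraries lay above the other 8 libraries on both scales. The mean in knockout MZB was 323% of that in wild-type MZB per cell and 259.6% after rescaling. The log2 change was 1.04 ± 0.19 per cell (SE; limma adjusted p = 2.08e-05) and 0.71 ± 0.13 after rescaling (limma adjusted p = 0.0128), on a scale with a pseudocount of 0.3 that understates the change of so low a gene.

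These Gfi1 values rest on few reads: 47 and 51 in knockout MZB, against 19, 18 and 21 in wild-type MZB. Outside knockout MZB, only wild-type MZB library 3 (0.327 mRNA per cell) reached the filter of 0.3, which asks for at least 2 libraries. Gfi1 thus met the filter only through the group where it was high, and its rise is not independent of that selection. On the recovered reads limma voom gave a log2 change of 1.37 ± 0.24 (SE; adjusted p = 0.00107). The rescaled call was lost without knockout MZB library 1 (0.64, limma adjusted p = 0.104) or 2 (0.76, limma adjusted p = 0.0814), or wild-type MZB library 1 (0.68, limma adjusted p = 0.0503), while the per-cell call held without each of the 10 libraries. In FoB, Gfi1 held 0.263, 0.269 and 0.197 mRNA per cell in knockout cells, against 0.186 and 0.201 in wild-type cells, and these overlapped. The FoB log2 change was 0.14 ± 0.19 per cell (limma adjusted p = 1) and 0.18 ± 0.13 after rescaling (limma adjusted p = 0.535). The knockout effect was larger in MZB than in FoB by 0.90 ± 0.26 per cell (log2, SE; limma adjusted p = 0.0444), a call lost when any 1 of 7 libraries was left out, and by 0.53 ± 0.19 after rescaling, which did not pass (limma adjusted p = 0.139).

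Some genes used as markers of other blood cells were also higher in knockout MZB. Of 6 such lists 1 member each was measured. Of these, 5 were higher in knockout MZB on both scales (limma adjusted p under 0.05), where 13.3% of all genes were called higher per cell and 3.36% after rescaling. The sixth, the plasma cell marker Irf4, was not called, at 24.8 to 26.5 mRNA per cell in knockout MZB and 21.1 to 25.2 in wild-type MZB, with a log2 change of 0.16 per cell and −0.16 after rescaling (limma adjusted p = 0.502 and 0.239), where the knockout MZB libraries all lay below the wild-type ones. Flt3, a receptor of progenitors and dendritic cells (1 of 5 dendritic cell markers measured), stood at 1.92 to 2.33 mRNA per cell in knockout MZB and 0.261 to 0.441 in wild-type MZB, and at 0.376 to 0.512 in knockout FoB and 0.0892 to 0.0945 in wild-type FoB, where it was also called higher on both scales. Itgam, the CD11b chain that the gate excluded (1 of 6 macrophage and monocyte markers), stood at 1.39 to 1.77 in knockout MZB and 0.265 to 0.394 in wild-type MZB, and was also called higher in knockout FoB after rescaling (log2 0.69, limma adjusted p = 0.0344). Lck (1 of 7 T cell markers) stood at 7.39 to 8.09 in knockout MZB and 3.80 to 4.54 in wild-type MZB, Il2rb (1 of 5 NK cell markers) at 3.09 to 3.72 and 1.45 to 2.14, and Itgb3 (1 of 4 platelet markers) at 2.10 to 2.40 and 0.869 to 1.06 in the same groups. Of 5 follicular B cell markers, 3 were higher in knockout MZB on both scales, beside the lower rescaled sum of marginal zone markers given above, and the list summed to 200.4 to 241 mRNA per cell in knockout MZB and 114 to 167 in wild-type MZB. Of 5 neutrophil and 5 erythroid markers 0 were measured. Which genes the deposited table kept, and why, is not given. A marker low in wild-type cells, such as Flt3 or Itgam, may be in it because it rose. The 5 of 6 above and the shares of all genes are therefore not a like comparison. The part of other cells in the Gfi1 values was not tested.

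**Figure D2:**
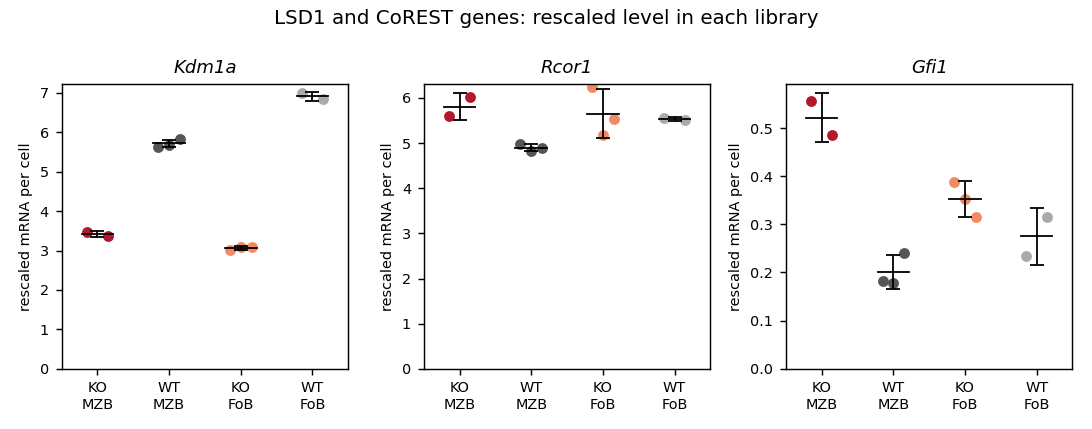
Rescaled mRNA per cell (y axes, linear, from 0) of Kdm1a, Rcor1 and Gfi1 in each library, by group; points are libraries, horizontal lines means and error bars SD (n = 2, 3, 3 and 2). The knockout and wild-type libraries are apart for Kdm1a in both cell types, and in MZB for Rcor1 (5.59 and 6.02 in knockout libraries) and Gfi1 (0.557 and 0.486).

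Over the 9 genes, 2 were called per cell in knockout MZB, Gfi1 and Rcor1, both higher, where 14.0% of all 9690 genes were called, 13.3% higher and 0.702% lower. After rescaling 2 were called, Gfi1 higher and Kdm1a lower, where 5.26% of all genes were called, 3.36% higher and 1.9% lower. The median log2 change of the 9 genes was 0.29 per cell and 0.045 after rescaling, beside 0.32 and 0.018 for all genes. Knockout MZB libraries lay above all wild-type MZB libraries for 6 genes and below them for 1 per cell, where 56.9% and 2.07% of all genes did so, and after rescaling for 4 and 3, where 24.2% and 21.4% did. In FoB Kdm1a alone was called, on both scales, where 0.712% of genes were called per cell and 0.588% after rescaling. The other 8 genes had FoB log2 changes from −0.21 to 0.14 per cell and from −0.17 to 0.18 after rescaling, and a p that misses the threshold does not show that they were equal. In FoB the knockout and wild-type libraries did not overlap for Kdm1a, per cell, where 11.9% of all genes did not overlap, and after rescaling for Kdm1a, Hmg20b (lower) and Hdac1 (higher), where 31.2% did not. The difference between the knockout effects was called for Gfi1 per cell, where 2.34% of genes were called, and for 0 of the 9 after rescaling, where 0.31% were (limma; unadjusted p under 0.05 for Kdm1a and Gfi1, and voom called Kdm1a).

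**Figure D3:**
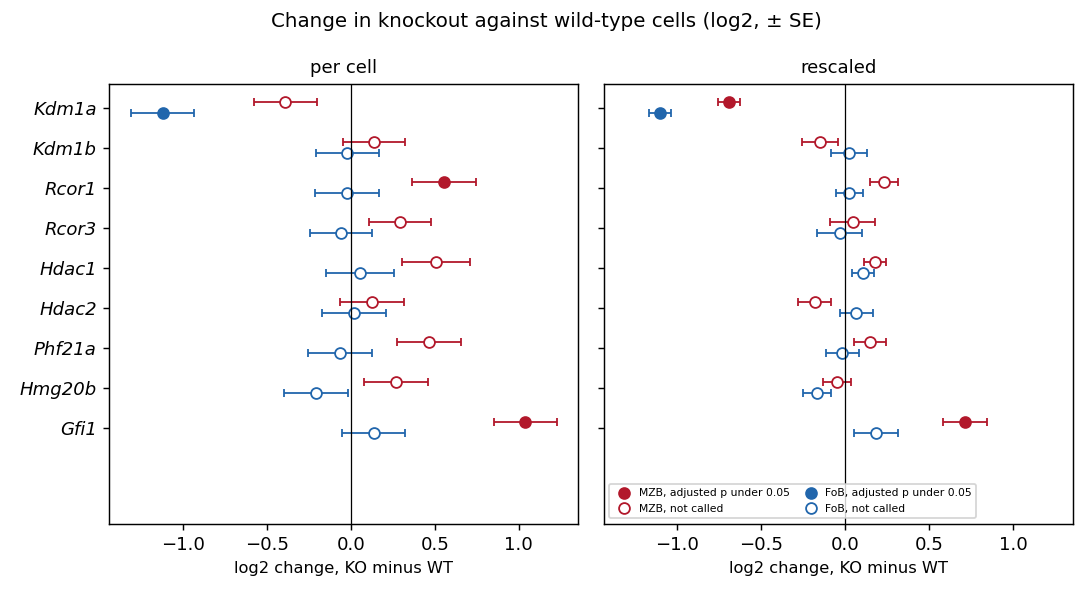
Log2 change of each gene between knockout and wild-type cells (x axes, KO minus WT, on log2 of value plus 0.3), per cell on the left and rescaled on the right; red points are MZB, blue points FoB, error bars SE, filled points a limma adjusted p under 0.05. Kdm1a lies left of 0 in both cell types and Gfi1 right of 0 in MZB on both scales, while the other genes lie nearer 0 after rescaling than per cell in MZB, except Kdm1b and Hdac2.

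A ratio of 2 transcripts within a library does not depend on how that library was scaled. Kdm1a per Rcor1 transcript, the enzyme against its scaffold, was 0.623 and 0.561 in knockout MZB, against 1.13, 1.18 and 1.19 in wild-type MZB. In FoB it was 0.482, 0.597 and 0.560 in knockout cells, against 1.26 and 1.24 in wild-type cells. All knockout libraries lay below all wild-type libraries. The log2 ratio was 1.09 lower in knockout cells over both types (difference −1.09; −0.98 in MZB and −1.20 in FoB), and an exact permutation test within cell type, two-sided, gave p = 0.01, the smallest that its 100 arrangements allow, and an adjusted p of 0.04 over 8 ratio tests. Kdm1a per Kdm1b transcript, LSD1 against LSD2, was 2.04 ± 0.053 in knockout MZB (SD, n = 2) and 3.02 ± 0.37 in wild-type MZB (SD, n = 3). In FoB it was 1.52 ± 0.15 in the 3 knockout libraries and 3.49 ± 0.28 in the 2 wild-type libraries (SD), so that the log2 ratio was lower in knockout cells (−0.88; exact permutation p = 0.01, adjusted p = 0.04). Both calls were lost when any library but knockout FoB 3 was left out (adjusted p from 0.0667 to 0.1), with log2 differences from −1.13 to −1.05 and from −0.92 to −0.83. These designs have fewer arrangements, so the smallest p they allow is above 0.01. The losses therefore do not show that the ratios moved, and the knockout libraries stayed below the wild-type ones.

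Neither pair of partner paralogues passed. Rcor1 per Rcor3 transcript averaged 10.5 in knockout MZB, 9.35 in wild-type MZB, 11.3 in knockout FoB and 10.5 in wild-type FoB (log2 difference between knockout and wild type 0.13; exact permutation p = 0.4). Hdac1 per Hdac2 transcript was 5.48 and 4.96 in knockout MZB, against 4.03, 4.13 and 3.88 in wild-type MZB. In FoB it was 5.99, 6.01 and 5.04 in knockout cells, against 5.42 and 5.63 in wild-type cells. Wild-type MZB thus held the lowest ratio of Hdac1 to Hdac2 in all of its libraries. The log2 ratio differed by −0.29 between MZB and FoB (exact permutation p = 0.02, adjusted p = 0.0533) and by 0.21 between knockout and wild type (exact permutation p = 0.07, adjusted p = 0.14). Without knockout FoB library 3 both passed, at −0.33 and 0.25 (adjusted p = 0.0333 for each).

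**Figure D4:**
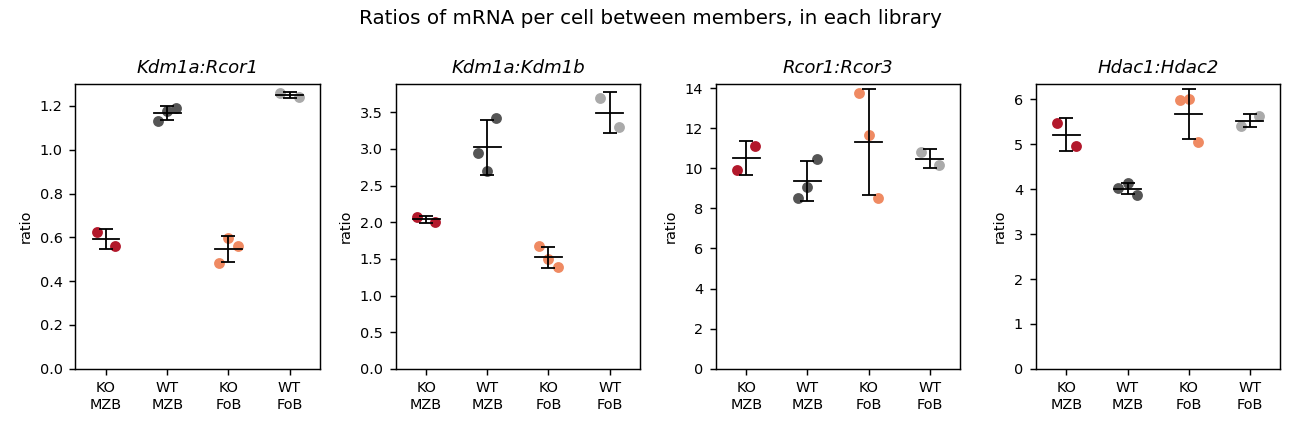
Ratios of mRNA per cell within each library (y axes, linear, from 0) for 4 pairs of the genes, by group; points are libraries, horizontal lines means and error bars SD (n = 2, 3, 3 and 2). Kdm1a per Rcor1 lies at 0.482 to 0.623 in knockout libraries and at 1.13 to 1.26 in wild-type libraries, and Hdac1 per Hdac2 is lowest in wild-type MZB.

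Between the cell types, these genes followed the higher mRNA content of MZB per cell, and differed in direction from one another after rescaling. In wild-type cells 8 of 9 were higher in MZB than in FoB per cell, all but Gfi1, where 84.2% of all genes were, and all 9 were without overlap, where 84.5% of all genes were. Without wild-type FoB library 2, which leaves a single library in that group, fewer of these genes and fewer of all genes were called. After rescaling, wild-type MZB held more Hdac2 than FoB of that genotype (log2 0.26 ± 0.098, SE; limma adjusted p = 0.0472), and Kdm1a (−0.26 ± 0.064; limma adjusted p = 0.00565), Hdac1 (−0.18 ± 0.065; limma adjusted p = 0.0374) and Phf21a (−0.34 ± 0.096; limma adjusted p = 0.0135) were lower, where 25.0% of all genes were called higher and 24.9% lower. The calls of Hdac1 and Hdac2 were each lost when any 1 of the 5 wild-type libraries was left out, and all 4 were lost without wild-type FoB library 1. Between knockout MZB and knockout FoB, 9 of 9 were higher in MZB per cell (log2 0.86 to 1.31), where 97.3% of all genes were, and 0 passed after rescaling by limma or by voom, where 35.2% of genes were called. At an unadjusted p under 0.05, Kdm1a (0.15 ± 0.064) and Gfi1 (0.33 ± 0.13) would pass there.

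The other genes of the pathway were read from lists of LSD1 cofactors and of complexes that share its partners or its mark. Of 11 measured genes among 14 other CoREST components and cofactors, 2 rose per cell in knockout MZB and 0 fell (median log2 change 0.50, against 0.32 for all genes), and 1 was higher after rescaling (median 0.18, against 0.018). For this and the lists below, the shares of all genes called in knockout MZB were 13.3% higher and 0.702% lower per cell, and 3.36% higher and 1.9% lower after rescaling, and each list's count is to be read against these. Zfp217, a zinc finger protein that joins LSD1 and CoREST, averaged 10.9 ± 1.31 mRNA per cell in knockout MZB (SD, n = 2) and 5.91 ± 0.92 in wild-type MZB (SD, n = 3), and rose on both scales (log2 0.85 per cell and 0.53 after rescaling; limma adjusted p = 0.000959 and 0.00319). Both Zfp217 calls were lost without knockout MZB library 2 (0.73 and 0.50; limma adjusted p = 0.118 and 0.0566). In FoB its rescaled log2 change was 0.34 ± 0.072 (limma adjusted p = 0.0749). Zmym3, a MYM-type zinc finger partner of the complex, averaged 7.43 ± 0.44 in knockout MZB and 4.91 ± 0.69 in wild-type MZB and rose per cell (0.58; limma adjusted p = 0.0306), a call lost without knockout MZB 1 or 2 or wild-type MZB 1 or 3 and with library weights (limma adjusted p = 0.0586). After rescaling it missed the threshold (0.26, limma adjusted p = 0.123), and passed with library weights (0.26, limma adjusted p = 0.0431) and with voom (0.27, adjusted p = 0.0488).

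Of 16 other DNA-binding proteins that recruit LSD1, 6 were measured, and 1 was higher per cell while 1 was higher and 1 lower after rescaling, where 3.36% and 1.9% of all genes were. Bcl6, a repressor that the germinal centre programme requires, held 5.12 and 5.75 mRNA per cell in knockout MZB, against 2.60 to 3.05 in wild-type MZB and 7.18 and 10.61 in wild-type FoB. It rose in knockout MZB on both scales (log2 0.91 and 0.58; limma adjusted p = 0.000361 and 0.0057), and its knockout effect differed between MZB and FoB on both (1.16 and 0.78; limma adjusted p = 0.00703 and 0.0457, up to 0.217 and 0.2003 over the alternatives). The rescaled MZB call was lost without knockout MZB library 1 (0.57, limma adjusted p = 0.0564) or 2 (0.60, limma adjusted p = 0.0704). Bcl11a, a zinc finger repressor of lymphoid and erythroid cells, averaged 10.3 mRNA per cell in both MZB groups and fell after rescaling only (−0.33; limma adjusted p = 0.0417), a call lost without any 1 of 7 libraries (adjusted p up to 0.199) and without the trend (limma adjusted p = 0.0625).

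Other complexes share HDAC1 and HDAC2 with CoREST. Of 12 NuRD genes, 1 was higher per cell and 0 after rescaling (medians 0.44 and 0.12, against 0.32 and 0.018 for all genes), where 13.3% and 3.36% of all genes were called higher. That gene, Cdk2ap1, a small NuRD subunit, averaged 6.91 ± 1.09 in knockout MZB and 4.38 ± 0.74 in wild-type MZB (log2 0.63 per cell; limma adjusted p = 0.0208). Of 21 measured genes of the SIN3, NCoR and other class I deacetylase complexes, 1 was higher per cell, and 1 was higher and 1 lower after rescaling (medians 0.34 and 0.018), where 13.3% of all genes were called higher per cell. Sap30, a SIN3 subunit, rose on both scales (1.56 ± 0.14 in knockout MZB and 0.622 ± 0.158 in wild-type MZB; log2 1.02 and 0.70; limma adjusted p = 2.58e-05 and 0.00715) on means of 32.5 and 16.7 reads. Tbl1xr1, an NCoR exchange factor, averaged 13.6 in knockout MZB and 13.8 in wild-type MZB and fell after rescaling only (−0.34; limma adjusted p = 0.0306). The rescaled calls were lost for Sap30 without knockout MZB 1 or 2, and for Tbl1xr1 without any 1 of the 5 MZB libraries. The per-cell call of Cdk2ap1 was lost without knockout MZB 2 or wild-type MZB 1 or 3 and with library weights (limma adjusted p = 0.0591), under which its rescaled change passed (0.31, limma adjusted p = 0.0396).

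Of the 3 measured KDM5 demethylases, which act on trimethylated lysine 4, Kdm5b rose on both scales, with 3.20 ± 0.36 mRNA per cell in knockout MZB and 1.91 ± 0.21 in wild-type MZB (log2 0.66 and 0.35; limma adjusted p = 0.0114 and 0.0481). Its per-cell call was lost without knockout MZB 2 or wild-type MZB 1, and its rescaled call without any 1 of 7 libraries (adjusted p up to 0.295) and with a pseudocount of 1 (limma adjusted p = 0.0527). Of 18 genes of the lysine 4 methyltransferase complexes, 1 was higher per cell, Pagr1a, and 0 after rescaling (medians 0.40 and 0.076), where 13.3% and 3.36% of all genes were called higher. Pagr1a, a subunit of the MLL3 and MLL4 complexes, held 6.44 and 9.70 mRNA per cell in knockout MZB, against 4.70 to 5.56 in wild-type MZB (log2 0.57; limma adjusted p = 0.0359), a call lost without knockout MZB 2 or wild-type MZB 1 or 3, with a pseudocount of 0.1 (limma adjusted p = 0.0512) and with library weights (limma adjusted p = 0.0609). In FoB 0 of the 71 measured genes of these 6 lists were called by limma on either scale, where 0.712% of all genes were called per cell and 0.588% rescaled, with 0 per cell and 8 rescaled at an unadjusted p under 0.05, and voom on the recovered reads called 1, Zfp217.

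**Figure D5:**
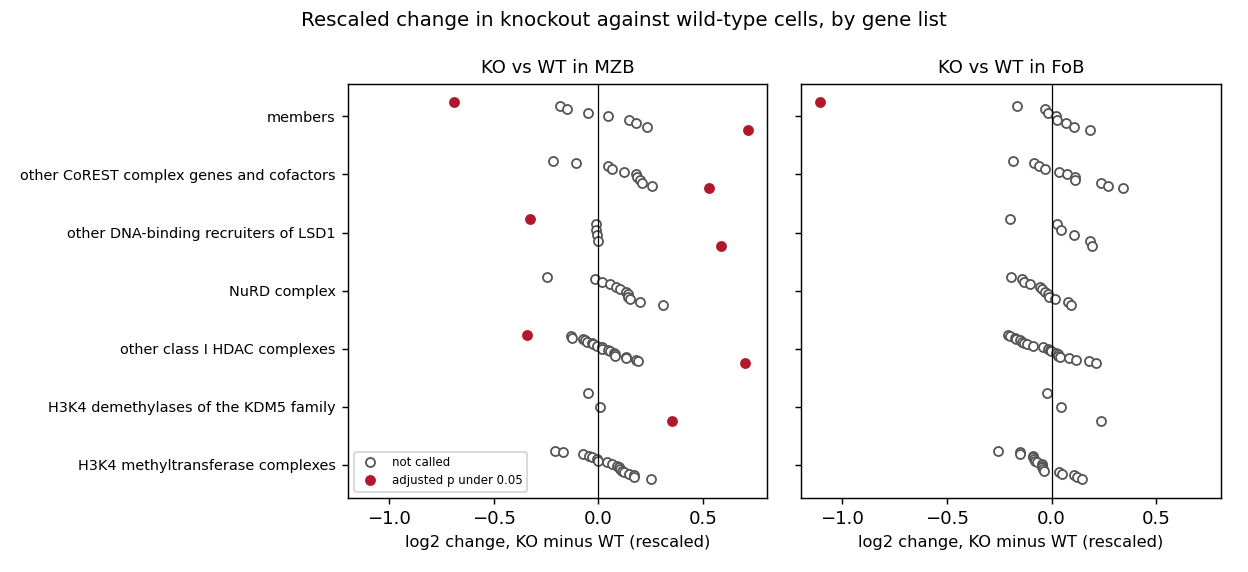
Rescaled log2 change between knockout and wild-type cells (x axes) of every measured gene of the LSD1 and CoREST set (members) and of 6 related lists, in MZB on the left and FoB on the right; filled points have a limma adjusted p under 0.05, and the vertical offset within a list only separates points. In FoB Kdm1a, at −1.10, is the filled point, and in MZB the filled points are Kdm1a, Gfi1, Zfp217, Bcl6, Bcl11a, Sap30, Tbl1xr1 and Kdm5b.

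Among 8238 other genes searched, the rescaled pattern most like that of Kdm1a over the 10 libraries belonged to Pik3c2b, a class II phosphoinositide kinase (Pearson r = 0.90), followed by Dolpp1, Habp4 and Rpl21 (0.87 each) and Fcamr, a receptor for antibody constant regions (0.86). Fcamr averaged 5.33 mRNA per cell in knockout MZB and 12.1 in wild-type MZB, and 0.961 in knockout FoB and 4.34 in wild-type FoB. The pattern most like that of Gfi1 belonged to the uncharacterised D930048N14Rik (0.96), then Cd72, an inhibitory receptor of B cells (0.94), Cyp27a1, a sterol hydroxylase (0.92), Anxa1, an annexin (0.92), and Oasl1, an oligoadenylate synthetase-like gene (0.91). Cd72 averaged 110.3 mRNA per cell in knockout MZB and 66.5 in wild-type MZB, and 39.0 in knockout FoB and 38.2 in wild-type FoB. These correlations are descriptions over libraries that fall into 4 groups and were picked as the highest of all those computed, so they carry no p.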

How the data were processed

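Poly(A) RNA of sorted B cells was sequenced from stranded KAPA libraries, per the labels' protocols. STAR and mm10 are named, without a version, per the submitters' processing notes. No source used here names the counter, the annotation or the way reads became molecules. The deposited signal of the authors is mRNA per cell for 9690 genes, keyed by Entrez number, and 9681 of these had a GRCm38.p6 symbol. Values were whole multiples of a step per gene and library, and whole reads were recovered for 100% of genes (tolerance 0.001 reads, largest deviation 2.9e-05).

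The 10 libraries were grouped by labelled cell type and LSD1 status. limma 3.58.1 in R 4.3.3 was fitted on log2(value + 0.3) with every library and a mean for each group, with an intensity trend, two-sided, Benjamini-Hochberg adjustment over all genes and a threshold of 0.05. A filter of 0.3 in at least 2 libraries removed 0 genes. Rescaling used trimmed means of log-ratios (trims 0.3 and 0.05) as library factors. Ratios within libraries were tested by exact permutation in Python 3.11.15. The scripts were tested on simulated data. The alternatives were other pseudocounts, a floor, no trend, a replicate block, library weights, the compared groups alone, another scale, limma voom on recovered reads, and leaving out each library.

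The 9 genes, the lists and the naming rule were chosen with earlier results of these data known. The rule names all 9 genes. From each other list it names the genes called in the same direction on both scales in a knockout comparison, and up to 3 with the smallest p per knockout comparison among those called on either scale. For Kdm1a and for Gfi1 it names the 5 most correlated genes with a mean of at least 1 mRNA per cell, leaving out small RNAs and predicted genes.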

Additional observations from a re-analysis of the deposited data

Results flagged for a closer look

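The knockout effect on Gfi1 was larger in MZB than in FoB per cell, by 0.903 on the log2 scale (SE 0.26; limma adjusted p = 0.0444, from 0.0162 to 0.224 over the alternatives), which marks it as a difference between the cell types under the same contrast. Gfi1 was higher in knockout than in wild-type cells by 1.04 in MZB and by 0.14 in FoB. After rescaling the difference was 0.53 (limma adjusted p = 0.139). Its cause was not tested.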

How the results depend on the processing

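The count of the 9 genes called in knockout MZB was 2 per cell, and became 1 with a pseudocount of 0.1, with a floor of 1 mRNA per cell, under which Gfi1 could not be tested, with the replicate block, with library weights and with the compared groups alone. It ran from 1 to 4 when single libraries were left out, the highest without wild-type MZB library 2. After rescaling it was 2, and 1 with the floor, and 1 to 2 without single libraries. The count for the difference between the knockout effects was 1 per cell, and 0 with a pseudocount of 0.1, the floor, the replicate block, library weights or rescaling, and 0 to 2 without single libraries. After rescaling it was 0, and 1 with library weights or voom, and 0 to 1 without single libraries. Between wild-type MZB and FoB it was 8 per cell and 4 after rescaling, 4 to 8 per cell without single libraries, and after rescaling 2 without the trend or with the replicate block and 0 to 4 without single libraries. Between knockout MZB and FoB it was 9 per cell and 0 after rescaling, and 1 after rescaling without the trend. Kdm1a stayed called in knockout FoB on both scales and in knockout MZB after rescaling, under each alternative and without each library (adjusted p up to 0.027, 0.0104 and 0.0131). Of the per-cell log2 changes in knockout against wild-type MZB, the sign turned with rescaling to −0.15 for Kdm1b, −0.18 for Hdac2 and −0.048 for Hmg20b, and with the replicate block to 0.0020 for Bcl11a. Of the per-cell log2 changes in knockout against wild-type FoB, the sign turned with the replicate block to 0.0054 for Kdm1b and 0.0015 for Rcor1, and with rescaling to 0.024 for Kdm1b and 0.024 for Rcor1, and with library weights to 0.073 for Rcor1, −0.047 for Hdac2 and 0.050 for Phf21a. Of the per-cell log2 changes for the difference between the knockout effects, the sign turned with rescaling to −0.17 for Kdm1b and −0.25 for Hdac2. Of the per-cell log2 changes between wild-type MZB and FoB, the sign turned with rescaling to −0.26 for Kdm1a, −0.053 for Kdm1b, −0.17 for Rcor1, −0.0032 for Rcor3, −0.18 for Hdac1, −0.34 for Phf21a, −0.032 for Hmg20b and −0.20 for Gfi1. Of the rescaled log2 changes between wild-type MZB and FoB, the sign turned with library weights to 0.019 for Rcor3, and with voom to 0.0029 for Rcor3. Of the per-cell log2 changes between knockout MZB and FoB, the sign turned with rescaling to −0.23 for Kdm1b, −0.11 for Hdac1 and −0.17 for Phf21a. Leaving out single libraries moved per-cell values in knockout against wild-type MZB across 0: Hdac2 ran from −0.10 to 0.35, Bcl11a ran from −0.15 to 0.13 and Tbl1xr1 ran from −0.094 to 0.059. With 1 library left out, sign turns arose, moving rescaled values in knockout against wild-type MZB across 0: Rcor3 ran from −0.0080 to 0.093 and Hmg20b ran from −0.11 to 0.018. Single libraries, when left out, moved per-cell values in knockout against wild-type FoB across 0: Kdm1b ran from −0.10 to 0.063, Rcor1 ran from −0.18 to 0.14, Rcor3 ran from −0.13 to 0.012, Hdac1 ran from −0.15 to 0.26, Hdac2 ran from −0.20 to 0.23 and Phf21a ran from −0.28 to 0.16. Omitting 1 library at a time moved rescaled values in knockout against wild-type FoB across 0: Kdm1b ran from −0.037 to 0.10, Rcor1 ran from −0.048 to 0.082, Rcor3 ran from −0.15 to 0.029, Hdac2 ran from −0.0012 to 0.13 and Phf21a ran from −0.10 to 0.058. Leave-one-out fits moved per-cell values for the difference between the knockout effects across 0: Hdac2 ran from −0.12 to 0.34. Dropping any 1 library moved rescaled values between wild-type MZB and FoB across 0: Kdm1b ran from −0.12 to 0.017, Rcor3 ran from −0.051 to 0.049 and Hmg20b ran from −0.10 to 0.034. Removal of single libraries moved rescaled values between knockout MZB and FoB across 0: Rcor1 ran from −0.018 to 0.11 and Hdac2 ran from −0.12 to 0.14. Without single libraries, the knockout to wild-type log2 difference ran from −1.13 to −1.05 for Kdm1a per Rcor1, from −0.92 to −0.83 for Kdm1a per Kdm1b and from 0.17 to 0.25 for Hdac1 per Hdac2, and the MZB to FoB difference from −0.034 to 0.048 for Kdm1a per Rcor1 and from −0.33 to −0.25 for Hdac1 per Hdac2. With a pseudocount of 0.3 the MZB to FoB difference was −0.012 for Kdm1a per Rcor1 and 0.23 for Rcor1 per Rcor3. The cause of these turns was not tested, other than that rescaling removes the shift shared by all genes. Over all genes, limma on the rescaled values called 510 genes in MZB, 57 in FoB and 30 for the difference, voom called 1094, 105 and 604, and the replicate block 265, 37 and 4. Per cell the counts were 1356, 69 and 227, and 528 in MZB and 110 for the difference with the replicate block. Without knockout MZB 2 they were 269 in MZB per cell and 59 after rescaling, and without wild-type MZB 2, 2791 per cell. The replicate block also ended the knockout MZB calls of Rcor1 (0.165), Zmym3 (0.157), Cdk2ap1 (0.114), Pagr1a (0.154) and Kdm5b (0.0674) per cell and of Kdm5b (0.114), Bcl11a (0.114) and Tbl1xr1 (0.0838) after rescaling (limma adjusted p in brackets). Same-numbered libraries had correlated deviations of 0.187 and 0.149 between knockout and wild-type MZB, 0.0608 and 0.00614 between knockout and wild-type FoB, 0.117 and 0.079 between knockout MZB and FoB, and 0.033 and −0.114 between wild-type MZB and FoB. Each comparison has fewer than 3 pairs, so the numbers were not taken to pair the libraries, and whether same-numbered libraries share an animal or a day is not given.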
